A study of Mus musculus with 4 samples.

Results

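The nuclear genes for the subunits of the mitochondrial respiratory chain and of ATP synthase were followed across 4 expression arrays of mouse embryonic stem cells. Members were all genes with a probe set of a single symbol beginning with Ndufa, Ndufb, Ndufc, Ndufs, Ndufv, Uqcr, Cox4 to Cox8 or Atp5, or being Sdha, Sdhb, Sdhc or Sdhd. That gave 90 of the 18194 genes named on the array, measured by 179 probe sets, and each gene was represented by its probe set of highest mean. By name, 44 genes fell to complex I, 4 to complex II, 8 to complex III, 17 to complex IV and 17 to complex V. The names beginning with Ndufa also brought in 8 Ndufaf genes, which help to build complex I without being part of it. A further 8 members were isoforms restricted to certain tissues or states: Cox4i2, Cox6a2, Cox6b2, Cox7a1, Cox7b2, Cox8b, Cox8c and Ndufa4l2. The remaining 74 are called core subunits here.

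The cells were CM7/1 murine embryonic stem cells overexpressing either Hey1 or Hey2, bHLH transcriptional repressors that act downstream of Notch, and the series asked which genes these factors regulate. Each line gave 1 array labelled as an uninduced control and 1 labelled as induced with doxycycline at 1000 ng/ml for 48 h. There was therefore 1 array in each of the 4 groups, with no replicate, and a difference between 2 arrays carries no error estimate. The sources used here give neither the build of the doxycycline switch nor whether a line was 1 clone.

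The respiratory chain sits in the inner mitochondrial membrane. Complex I takes electrons from NADH and complex II takes them from succinate, ubiquinone carries them to complex III, cytochrome c carries them to complex IV, and complex IV passes them to oxygen. Complexes I, III and IV pump protons, and ATP synthase, complex V, uses the returning protons to make ATP. Pluripotent stem cells draw much of their ATP from glycolysis but keep a complete chain. Several complex IV subunits exist as a widespread form and a paralog expressed mainly in muscle, lung or testis.

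Values were on the log2 scale, and only genes whose highest array reached 6.05, the median of all values, were compared, which left 12098 genes and 89 of the 90 members. The single-symbol probe set of Ndufb4, an accessory subunit of complex I, stayed under this level at 5.05 and 5.09 in the Hey1 line and 4.25 and 4.67 in the Hey2 line. A further 2 probe sets shared by Ndufb4, Ndufb4b and Ndufb4c read at least 12.4 on all arrays, so the gene itself cannot be called low. All 8 stem cell markers checked, Pou5f1, Sox2, Nanog, Zfp42, Esrrb, Dppa5a, Tdgf1 and Utf1, passed on all arrays at 10.9 or above, and their mean was 13.1 in each array. Of 7 fibroblast markers 2 passed, Col1a2 and Thy1, and of 7 cardiomyocyte and muscle markers 3 passed, Myh6, Ckm and Mb. The means of marker lists of other cell types were not the same in all arrays. For the fibroblast list they were 5.35 and 5.43 in the Hey1 line and 5.25 and 5.13 in the Hey2 line. Thy1 read 7.13 and 7.80, and 5.51 and 5.73, lower in the Hey2 line. Col1a2 read 6.04 and 6.13, and 6.27 and 5.89. Dcn, under the filter, read 5.20 and 5.27, and 5.88 and 5.77, higher in the Hey2 line. The fibroblast markers thus had no common direction. All 4 neuroectoderm markers passed, with list means of 7.86 and 7.68, and 7.65 and 7.23. Among them Sox1 read 8.14 and 7.35, and 7.05 and 5.98, lower in each induced array and in the Hey2 line. The rest of this list did not all share that pattern. With induction Pax6 differed by -0.060 and -0.13, Tubb3 by -0.043 and -0.049, and Nes by 0.17 and -0.45. Hey2 line minus Hey1 line, uninduced and induced, was 0.12 and 0.051 for Pax6. It was -0.17 and -0.17 for Tubb3, and 0.30 and -0.33 for Nes. Of 3 mesoderm markers measured 2 passed and of 4 endoderm markers 1 passed, with list means of 6.13 to 6.41 and 5.49 to 5.64. The part of these cell types in the members' differences was not tested.

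The probe set named for Hey1 read 6.73 and 6.51 in the Hey1 line without and with doxycycline, and 6.72 and 6.25 in the Hey2 line. The probe set named for Hey2 was under the level filter on all arrays, at 4.84 and 4.51 in the Hey1 line and 4.25 and 4.34 in the Hey2 line. The Hey1 probe set was thus lower in its own line after induction, and the Hey2 probe set differed by 0.090 at values under the filter. Whether they read the introduced copies is not known. Every direction below therefore rests on the arrays as labelled.

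A pair of genes of complex IV and a pair of complex V had differences of opposite sign in both lines, and the 250 bases upstream of their start are printed here so that each can be read beside its values. Cox7a1 and Cox7a2 encode the muscle-type and the widespread form of the same complex IV subunit, and Atp5pb and Atp5k encode membrane-side subunits of ATP synthase. Sequences are from RefSeq on GRCm38.p6, written 5′ to 3′ on the gene's strand. Capitals mark the NRF1 palindrome in Atp5k and, in Atp5pb, the E-box CACGTG followed by the NRF1 half-site TGCGCA. Positions are chr7:30183921-30184170 on the plus strand for Cox7a1, chr9:79759854-79760103 on the minus strand for Cox7a2, chr5:108434400-108434649 on the minus strand for Atp5k and chr3:105959264-105959513 on the minus strand for Atp5pb.
Cox7a1: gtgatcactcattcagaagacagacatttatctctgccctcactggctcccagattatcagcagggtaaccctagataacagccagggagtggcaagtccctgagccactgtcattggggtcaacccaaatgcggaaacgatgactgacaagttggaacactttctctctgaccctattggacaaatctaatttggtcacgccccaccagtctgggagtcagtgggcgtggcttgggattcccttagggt
Cox7a2: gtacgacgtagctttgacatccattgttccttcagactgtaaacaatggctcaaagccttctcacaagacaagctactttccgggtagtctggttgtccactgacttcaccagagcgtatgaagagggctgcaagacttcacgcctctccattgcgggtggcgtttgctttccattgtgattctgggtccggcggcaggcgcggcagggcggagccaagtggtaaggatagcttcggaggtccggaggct
Atp5k: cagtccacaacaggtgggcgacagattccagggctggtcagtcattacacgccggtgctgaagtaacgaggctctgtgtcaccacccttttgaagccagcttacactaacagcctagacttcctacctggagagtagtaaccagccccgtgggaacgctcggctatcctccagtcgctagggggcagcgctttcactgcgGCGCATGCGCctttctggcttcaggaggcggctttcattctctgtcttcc
Atp5pb: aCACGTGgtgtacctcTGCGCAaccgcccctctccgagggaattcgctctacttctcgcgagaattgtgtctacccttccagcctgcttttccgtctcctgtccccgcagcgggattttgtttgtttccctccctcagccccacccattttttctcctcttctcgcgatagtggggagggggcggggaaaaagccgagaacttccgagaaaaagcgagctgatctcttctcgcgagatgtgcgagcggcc
None of the motifs searched lies in these windows of Cox7a1 and Cox7a2.

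Most members read slightly lower in the array labelled induced than in its uninduced partner. The median log2 difference over the 89 members was -0.052 in the Hey1 line, against -0.012 over all genes compared. In the Hey2 line it was -0.076, against -0.022. In the Hey1 line 64 of 89 members lay below 0 (71.9%; 53.1% of all genes), and in the Hey2 line 69 of 89 did (77.5%; 54.3% of all genes). Both lines together had 57 of 89 members below 0 (64.0%; 35.5% of all genes), 12 above 0 in both and 19 on opposite sides. Members are strongly expressed genes. Among the 7355 genes reaching the 75th percentile of all values, 8.31, the medians were -0.018 and -0.0057. For the 83 members there they were -0.058 and -0.072. Most members read well above 8.31, and whether they leaned further than genes of their own level was not tested. The single differences were small, and the values describe these 4 arrays only.

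**Figure D1:**
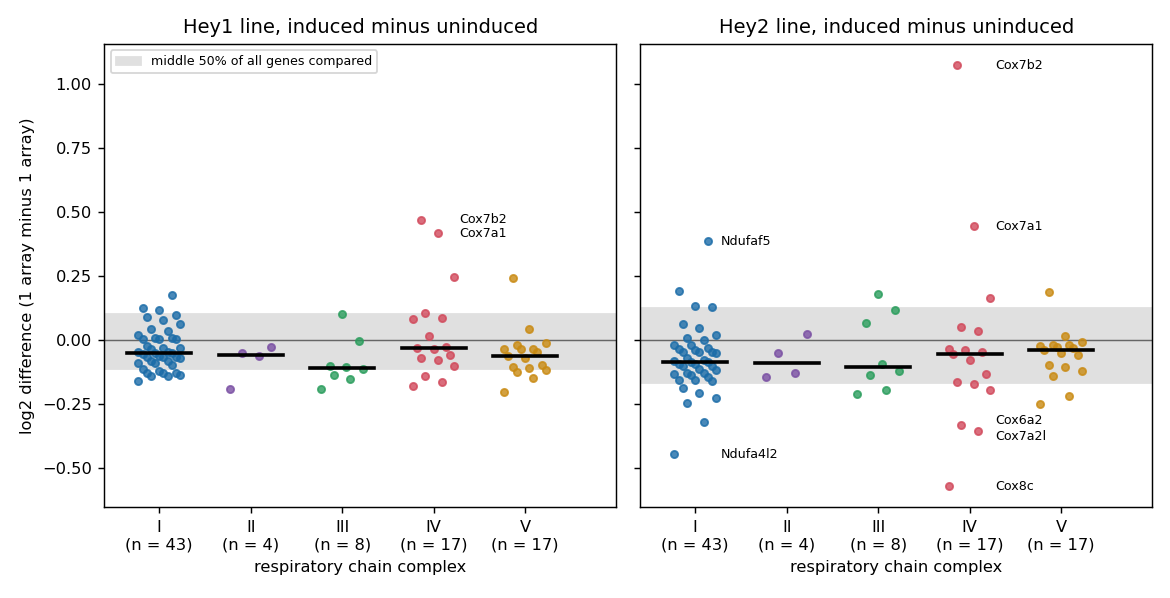
Log2 difference between the labelled induced and uninduced array for each member that passed the level filter (points), by respiratory chain complex, in the Hey1 line (left) and the Hey2 line (right). Black bars are medians and the grey band holds the middle 50% of all 12098 genes compared. Medians of all complexes lie between -0.11 and -0.030, and the members named are those with a difference of at least 0.32 in size.

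The complexes differed little in their medians. In the Hey1 line these were -0.049 for complex I, -0.057 for complex II, -0.11 for complex III, -0.030 for complex IV and -0.062 for complex V. In the Hey2 line they were -0.085, -0.090, -0.11, -0.055 and -0.038 in the same order. Complex III had the lowest median in each line with this choice of probe set. When all probe sets of a gene were averaged, its Hey2 median was -0.054, the nearest to 0 of the complexes, so the order of the complexes is not settled. Complex V had 15 of 17 genes below 0 in both lines, where 35.5% of all genes were. That count depends on the probe set. Another probe set above the filter was positive for Atp5c1 and Atp5g2 in the Hey2 line, and for Atp5o in the Hey1 line. Complex IV had 8 of 17 below 0 in both, and its differences covered the widest range. Without the isoforms and assembly factors, a grouping chosen after the data were seen, 52 of the 73 core subunits that passed were below 0 in both lines (71.2%), with medians of -0.062 and -0.076.

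Complex I has a module that oxidises NADH (N), a module that passes electrons to ubiquinone (Q) and a membrane arm that pumps protons (P). In the Hey1 line the medians were -0.062 for 9 genes of the N module, -0.045 for 5 of the Q module and -0.047 for 19 of the P module. In the Hey2 line they were -0.049, -0.085 and -0.10. The P module was the most one-sided in the Hey2 line, with 18 of 19 genes below 0 (54.3% of all genes). In the Hey1 line 12 of 19 were below 0 (53.1% of all genes). The Hey2 count depends on the probe set. Ndufab1, Ndufb2, Ndufb8, Ndufb11 and Ndufc1 each had another probe set above the filter with a positive difference in that line. Ndufb5, an accessory subunit of this arm, was the exception in the Hey2 line, at 0.018. Its second probe set gave -0.063 there, so that sign depends on the probe set.

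Among complex I genes the lowest mean over both lines was that of Ndufv3, an accessory subunit of the NADH-oxidising flavoprotein part. Its values were 11.68 and 11.52 in the Hey1 line and 11.64 and 11.42 in the Hey2 line, uninduced first. Both induced arrays were lower than both uninduced arrays, by 0.16 and 0.23 within the lines. Ndufs1, the large iron-sulfur subunit of the N module, read 11.75 and 11.75, and 11.49 and 11.61. It was nearly level in the Hey1 line and separated the lines rather than the treatments.

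Ndufb1, a small membrane-arm subunit, gave 7.73 and 7.75 in the Hey1 line and 7.54 and 7.22 in the Hey2 line. Only the Hey2 line showed a lower induced value, by 0.32, which falls just short of the threshold of 0.32 applied below when both are written to more decimals. Ndufb6, another subunit of the arm, had the largest positive difference of the core complex I subunits in the Hey1 line, 0.12. It was at -0.021 in the Hey2 line. Its second probe set, at nearly the same level, gave -0.072 and -0.079, so its sign in the Hey1 line depends on the probe set.

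The 8 Ndufaf assembly factors did not share the downward lean of the subunits they help to assemble. Their medians were 0.0072 (Hey1 line) and -0.011 (Hey2 line), with 3 of 8 below 0 in both lines. Ndufaf5, an arginine hydroxylase that acts on a Q module subunit, read 9.41 and 9.42 in the Hey1 line and 9.15 and 9.54 in the Hey2 line. The uninduced Hey2 array was its lowest, and the difference of 0.39 in that line became 0.13 against the uninduced Hey1 array. Ndufaf7, a methyltransferase that modifies a core subunit during assembly, was higher in both lines, by 0.18 and 0.13. Ndufaf6 was higher by 0.090 and 0.19, while Ndufaf2 was lower by 0.14 in each line. The difference between assembly factors and subunits was not tested.

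Complex II, succinate dehydrogenase, is also an enzyme of the citric acid cycle. All 4 of its genes were below 0 in the Hey1 line and 3 of 4 in the Hey2 line. Sdhb, the iron-sulfur subunit, read 12.43 and 12.24 in the Hey1 line and 12.31 and 12.33 in the Hey2 line. The uninduced Hey1 array stood highest, and the lower value after induction, -0.19, appeared in that line only. Sdhd, a membrane anchor, had the lowest mean of the complex at -0.052 and -0.14, and Sdhc, the other anchor, the highest at -0.027 and -0.052. Probe sets of Sdhd had opposite signs more than 0.3 apart in the Hey1 line, so its direction there depends on the probe set.

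Complex III passes electrons from ubiquinol to cytochrome c. Uqcrfs1, its Rieske iron-sulfur protein, gave 12.04 and 11.85 in the Hey1 line and 12.02 and 11.82 in the Hey2 line. The pairs did not overlap, with both induced arrays below both uninduced ones by 0.19 and 0.20. Uqcrc2, a core protein of the complex, went the other way, at 12.87 and 12.97, and 12.61 and 12.79. It was higher by 0.099 and 0.18 within the lines, while the Hey2 line lay lower than the Hey1 line in either state. The second probe set of Uqcrc2 gave -0.029 and 0.050, so its direction in the Hey1 line depends on the probe set. Uqcrh, the hinge protein near cytochrome c1, was lower by 0.10 and 0.21.

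Complex IV, cytochrome c oxidase, held the widest differences of all complexes, and most of them came from tissue-restricted isoforms. Cox7a1, the form of subunit VIIa known from heart and skeletal muscle, read 8.37 and 8.79 in the Hey1 line and 8.09 and 8.54 in the Hey2 line. It was higher with induction by 0.42 and 0.44, a 1.33-fold and a 1.36-fold difference, although the induced Hey2 array was below the induced Hey1 array. Its widespread paralog Cox7a2 read 14.0 and 13.83, and 13.95 and 13.79. Cox7a2 was lower by 0.16 in each line, with both induced arrays under both uninduced ones.

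Cox7b2, a testis form of subunit VIIb, read 5.64 and 6.10 in the Hey1 line and 5.32 and 6.39 in the Hey2 line. It passed the level filter only through the induced arrays, where it was close to the limit. The difference was 0.47 in the Hey1 line and 1.07, or 2.10-fold, in the Hey2 line. Against the other line's uninduced array the values were 0.78 and 0.76 for Cox7b2, and 0.70 and 0.17 for Cox7a1. Of the muscle markers, Myh6, the cardiac myosin heavy chain, read 6.07 and 6.53 in the Hey1 line and 5.60 and 6.48 in the Hey2 line. Ckm and Mb, which also passed the filter, did not follow Myh6. With induction Ckm differed by -0.12 and -0.57 in the Hey1 and the Hey2 line, and Mb by 0.34 and -0.38. The 7-gene muscle list had means of 5.60, 5.58, 5.65 and 5.52 over the arrays in the same order, and Myh7, Tnnt2, Actc1 and Nppa were under the filter on every array. Its part in the Cox7a1 and Cox7b2 values was not tested.

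The Hey2 line also held isoforms that read lower with induction. Cox8c, a testis form of subunit VIII, read 8.17 and 8.25 in the Hey1 line and 8.55 and 7.98 in the Hey2 line. Its Hey2 arrays were the highest and the lowest of all, a difference of -0.57, and its second probe set gave -0.56. Cox6a2, the muscle form of subunit VIa, read 7.10 and 7.07, and 7.27 and 6.94. Ndufa4l2, a hypoxia-inducible relative of Ndufa4, read 7.11 and 7.23, and 7.49 and 7.04.

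For each of these genes the uninduced Hey2 array was the highest and the induced Hey2 array the lowest. Against the uninduced Hey1 array, the induced Hey2 differences shrank to -0.19 for Cox8c, -0.16 for Cox6a2 and -0.067 for Ndufa4l2. Cox7a2l, a relative of subunit VIIa that joins complexes III and IV into supercomplexes, shared the pattern at 11.76 and 11.77, and 11.95 and 11.59. All 3 of its probe sets were lower in the Hey2 line, by 0.36, 0.29 and 0.25, and the value of the first was -0.17 against the uninduced Hey1 array. Cox4i2, the lung form of subunit IV, differed by 0.25 and -0.17 in the Hey1 and the Hey2 line.

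**Figure D2:**
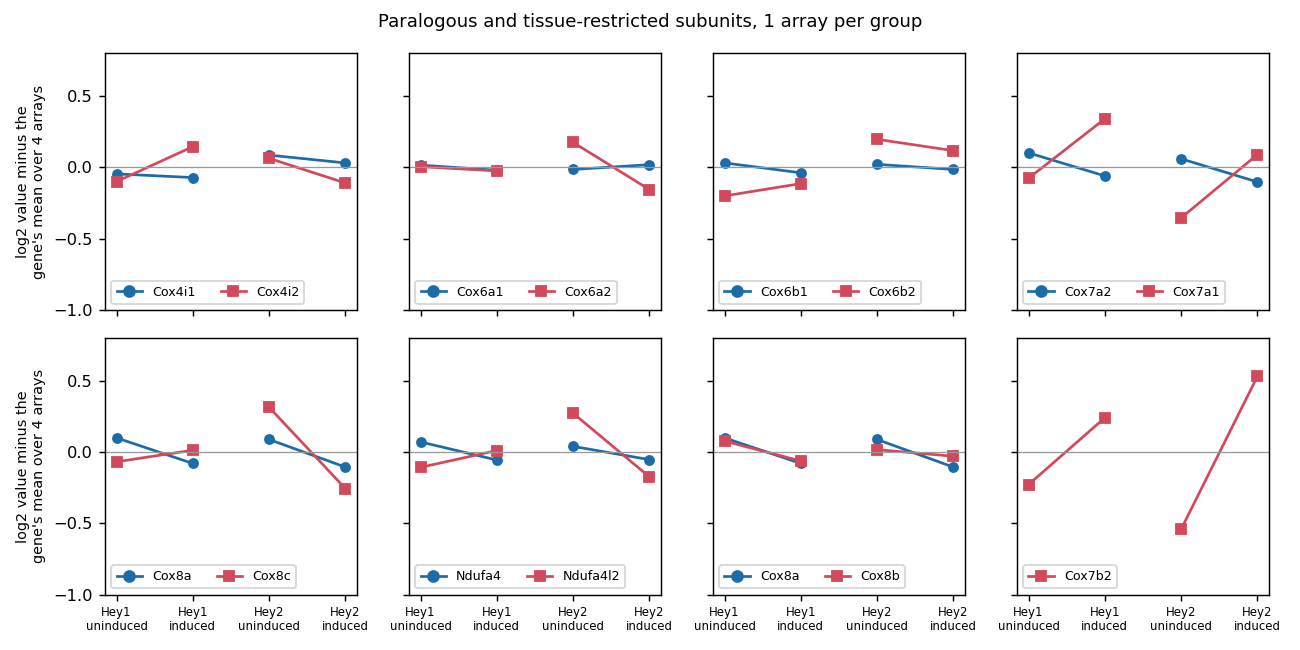
Each gene's log2 value minus its own mean over the 4 arrays, for widespread complex IV subunits and Ndufa4 (blue circles) and tissue-restricted forms of the same subunit or a relative (red squares); Cox8a is drawn beside both of its relatives and Cox7b2 alone. Lines join the uninduced and induced array of 1 cell line: Cox7a1 and Cox7b2 stand higher in both induced arrays, while Cox8c, Cox6a2 and Ndufa4l2 peak in the uninduced Hey2 array.

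The widespread complex IV subunits stayed within narrow limits. Cox8a, the common form of subunit VIII, read 13.07 and 12.89 in the Hey1 line and 13.05 and 12.86 in the Hey2 line, lower by 0.18 and 0.19. Cox4i1, the common form of subunit IV, differed by -0.025 and -0.055. Cox5a, a nuclear-encoded subunit of every tissue, was among the few on the other side, at 0.10 and 0.050. Its other probe sets gave 0.089 and -0.034, and -0.082 and 0.021, so its sign in each line depends on the probe set. Cox6c was lower by 0.10 and 0.13, but its probe sets had opposite signs more than 0.3 apart in the Hey1 line.

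Complex V makes ATP in its F1 head, driven by a ring of c subunits in the membrane. The 5 F1 genes had medians of -0.037 and -0.021 in the Hey1 and the Hey2 line, the 3 c ring genes -0.062 and -0.059, and 7 genes of the stalk and membrane part -0.068 and -0.038. Atp5k, the e subunit, which helps ATP synthase form dimers, read 13.34 and 13.14 in the Hey1 line and 13.27 and 13.05 in the Hey2 line. It was lower by 0.20 and 0.22, and its other 2 probe sets were also lower in both lines. The small membrane protein gene Atp5mpl was lower by 0.12 and 0.25.

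Atp5pb, the b subunit of the peripheral stalk, went against the complex at 13.66 and 13.91, and 13.53 and 13.71. It was higher by 0.24 and 0.19, and its second probe set by 0.030 and 0.11. Atp5b, the catalytic beta subunit, was the only other gene of complex V above 0 in both lines, at 0.044 and 0.017. Atp5a1, the alpha subunit beside it in the F1 head, was at -0.033 and -0.021.

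Few members reached the low threshold used here, a log2 difference of 0.32, which is the ratio of 5 to 4. In the Hey1 line 2 of 89 were that much higher, Cox7a1 and Cox7b2, where 6.16% of all genes were, and 0 were that much lower, where 3.99% of all genes were. In the Hey2 line 3 were higher, Cox7a1, Cox7b2 and Ndufaf5 (9.54% of all genes), and 4 were lower, Cox6a2, Cox7a2l, Cox8c and Ndufa4l2 (11.7% of all genes). A 1.5-fold difference in either direction was reached by 0 members in the Hey1 line (2.42% of all genes) and by Cox7b2 alone in the Hey2 line (5.48% of all genes). With each line's own uninduced array as reference, the genes past the low threshold were tissue-restricted isoforms except Ndufaf5 and Cox7a2l. With the other line's uninduced array, the counts became 6 higher and 1 lower in the Hey1 line. In the Hey2 line they became 1 higher and 5 lower, and none of those 5 was among the 4 lower genes named above. No share of all genes is given for this reference.

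The spread of differences was narrower among members than among all genes. The scaled median absolute deviation of the members was 0.085 for the Hey1 line and 0.090 for the Hey2 line, against 0.16 and 0.22 over all genes compared. Genes at the 75th percentile or above had 0.13 and 0.17. Between the uninduced arrays of the lines it was 0.095 for members and 0.29 for all genes. Members thus differed less from array to array than genes at the 75th percentile or above, which is a description of these 4 arrays. That set begins at 8.31, and most members read well above this value. Whether members differed less than genes of their own level was not tested.

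**Figure D3:**
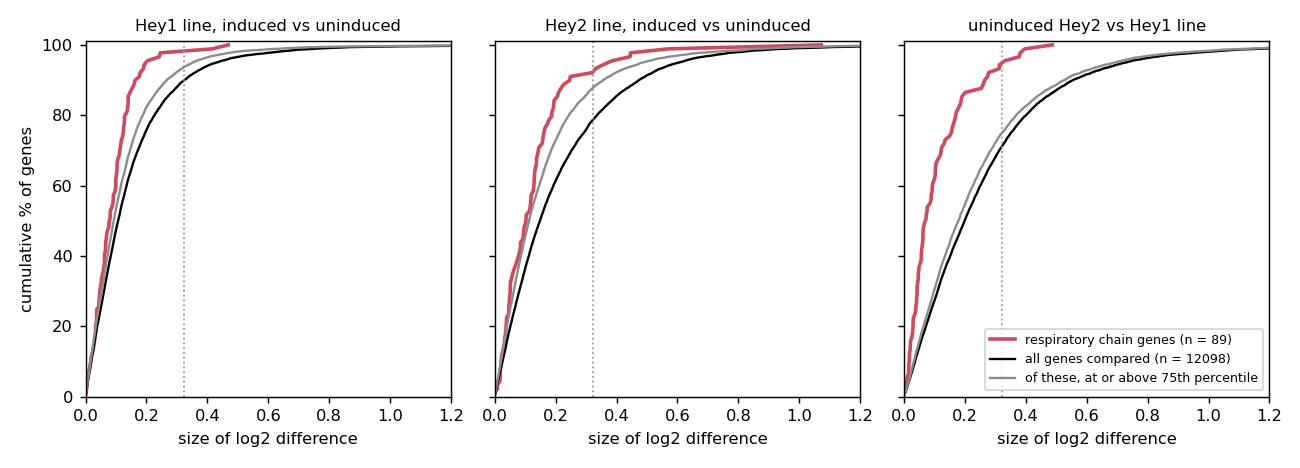
Cumulative percentage of genes by the size of their log2 difference, for the 89 respiratory chain genes (red), all 12098 genes compared (black) and those at or above the 75th percentile of level (grey), in the Hey1 line, the Hey2 line and between the uninduced lines. The dotted line marks the threshold of 0.32, and the red curve lies above the black one over most of its course in all 3 panels; the axis ends at 1.2.

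A test of induction was possible only by treating both lines as repeats of 1 treatment, in a limma fit with the line as a block and 1 residual degree of freedom. With Benjamini-Hochberg adjustment over all genes, 0 of 89 members passed at 0.05, and 0% of all genes did. At an unadjusted p under 0.05, limma gave 2 members higher, Cox7a1 and Cox7b2 (6.9% of all genes), and 0 lower (6.31% of all genes). Cox7b2 passed the level filter only through the induced arrays and so had to differ, and it supports nothing here. Cox7a1 had the lowest adjusted p of the members in this limma fit, 0.278, with a difference of 0.43 ± 0.080 (SE). Atp5pb stood at 0.22 ± 0.081 (limma adjusted p = 0.395), Atp5k at -0.21 ± 0.080 (0.395) and Uqcrfs1 at -0.19 ± 0.080 (0.406). With limma's trend and robust options, which let the variance prior depend on expression level, the fit called 4 members, Cox7a1 and Atp5pb higher and Atp5k and Cox7a2 lower, among 433 genes in all.

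Differences with induction in the Hey1 line, set against those of the Hey2 line over the 89 members, had Pearson's r = 0.54 and Spearman's rho = 0.38. Over all 12098 genes these were 0.41 and 0.37, and over the 73 core subunits 0.45 and 0.43. The lines share no array, but points of 1 line share the same pair of arrays, and genes are not independent replicates, so the values are descriptions. Cox7b2 lies apart from the other members in the Hey2 line, and Cox7a1 and Cox7b2 in the Hey1 line.

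**Figure D4:**
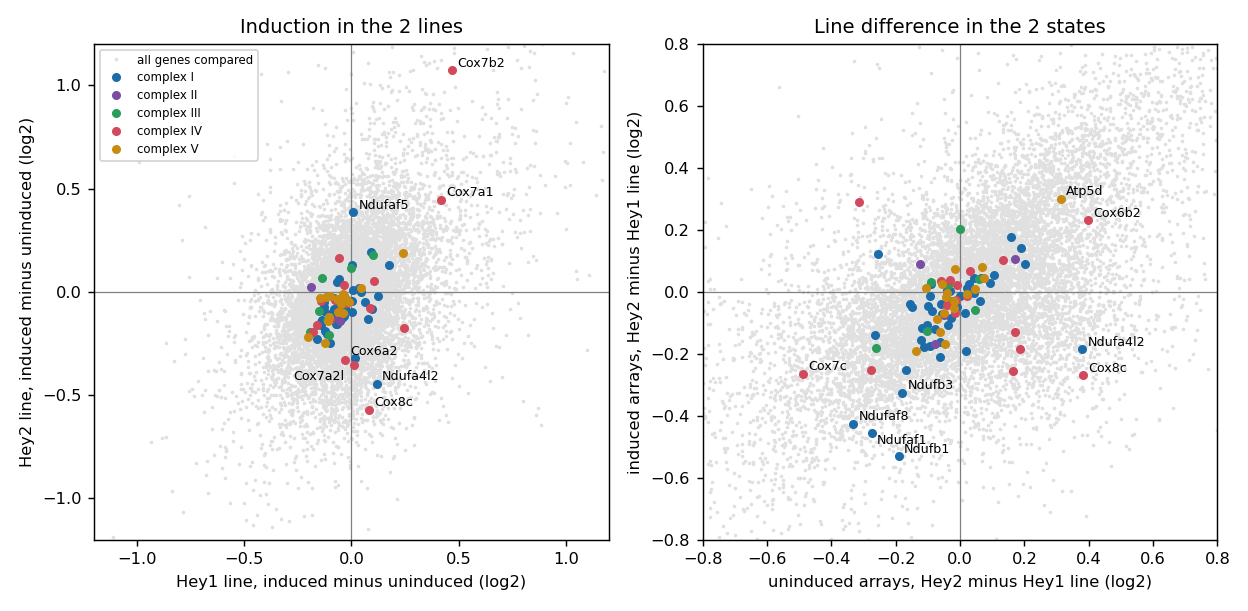
Left, log2 difference with induction in the Hey1 line (x) against the Hey2 line (y); right, Hey2 line minus Hey1 line in the uninduced arrays (x) against the induced arrays (y). Grey points are all genes compared, coloured points the members by complex, and genes beyond the axes are not drawn; members cluster near 0, with Cox7a1 and Cox7b2 at the upper right on the left and Ndufaf8, Ndufaf1, Cox7c, Atp5d and Cox6b2 apart on the right.

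The lines themselves differed at some members irrespective of doxycycline. The median of Hey2 line minus Hey1 line was -0.039 between the uninduced arrays, against 0.027 over all genes, and -0.038 between the induced arrays, against -0.017. By complex the medians were -0.058, -0.063, -0.031, -0.010 and -0.040 for complexes I to V uninduced, and -0.048, 0.0070, -0.0037, -0.026 and -0.0064 induced. When all probe sets of a gene were averaged, the induced medians were -0.092, -0.022, -0.058, -0.011 and -0.044, so their sizes, and the sign for complex II, depend on the probe set chosen. The Hey2 line was lower in both states for 43 of 89 members and higher in both for 18. Of the 12098 genes compared, 4260 were lower in both and 4376 higher in both. The sign was shared by both states in 68.5% of members and 71.4% of all genes. Between the states r was 0.40 and rho 0.45 over members, against 0.67 and 0.59 over all genes. Over the 73 core subunits r was 0.65 and rho 0.63, close to the values of all genes.

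Between the uninduced arrays 3 of 89 members were higher in the Hey2 line by 0.32 or more, Cox6b2, Cox8c and Ndufa4l2 (16% of all genes), and 2 were that much lower, Cox7c and Ndufaf8 (12.9% of all genes). Between the induced arrays 0 were higher (12.6% of all genes) and 4 were lower, Ndufaf1, Ndufaf8, Ndufb1 and Ndufb3 (11% of all genes). No member reached 1.5-fold in either, where 8.92% of all genes did uninduced and 6.71% induced. These comparisons share arrays with those of induction, so the high uninduced Hey2 values of Cox8c and Ndufa4l2 enter both.

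Ndufaf8, an assembly factor that partners Ndufaf5, read 11.19 and 11.08 in the Hey1 line and 10.86 and 10.65 in the Hey2 line. Both Hey2 arrays were under both Hey1 arrays, and its second probe set was lower by 0.26 and 0.31. Ndufaf1, an assembly factor of the membrane arm, read 9.98 and 10.08, and 9.71 and 9.63. Cox7c, a small complex IV subunit, gave 8.76 and 8.70, and 8.28 and 8.44, and its second probe set was lower by 0.77 and 0.48.

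Atp5d, the delta subunit of the F1 head, went the other way at 12.68 and 12.58, and 13.00 and 12.88. Its second probe set was higher in the Hey2 line by 0.26 and 0.28. Cox6b2, a testis form of subunit VIb, read 9.50 and 9.59, and 9.90 and 9.82, with no overlap between the lines. The widespread Cox6b1 differed by -0.010 and 0.024 between the lines.

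In the same limma fit, with induction as a block, 0 of 89 members passed an adjusted p of 0.05 for the line, against 0.918% of all genes. At an unadjusted p under 0.05 limma gave 2 members higher in the Hey2 line, Atp5d and Cox6b2 (15.2% of all genes), and 6 lower, Cox7a1, Cox7c, Ndufaf1, Ndufaf8, Ndufb1 and Ndufb3 (13.1% of all genes). The lowest limma adjusted p were 0.0913 for Ndufaf8 at -0.38 ± 0.083 (SE), 0.107 for Ndufaf1 at -0.36 ± 0.092, and 0.111 for both Cox7c at -0.38 ± 0.098 and Atp5d at 0.31 ± 0.080. Cox6b2 stood at 0.31 ± 0.090 (limma adjusted p = 0.128). This result depended on the setting, for members and for all genes. When genes under the 75th percentile were left out, limma called 6 of 83 members, against 1864 of 7355 genes in all. With the trend and robust options it called 12 of 89 members, against 2933 of 12098 genes.

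Probe sets of the same gene often disagreed on differences this small. Of 49 members with several probe sets above the filter, all had the same sign in 32 in the Hey1 line, 29 in the Hey2 line, 34 between the uninduced and 35 between the induced arrays. Opposite signs more than 0.3 apart occurred for Cox6c and Sdhd in the Hey1 line. In the Hey2 line they occurred for Ndufab1, Ndufb2, Ndufb8, Ndufs8, Uqcr10 and Uqcrq. Between the lines they occurred for Ndufab1, Ndufs4, Sdha and Uqcrq uninduced, and for Atp5o, Ndufab1, Ndufb2 and Ndufs4 induced.

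Promoters of 74 of the 90 members were in the RefSeq table, each from 250 bases before to 50 after the start. NRF1, GABP of the ETS family and YY1 are activators of many respiratory genes, and Hey factors bind E-boxes and related sites. Searched on both strands, the NRF1 palindrome was found in 6 member promoters (8.11%), against 2.31% of 9736 genes compared that had a promoter and 1.07% of all 27025. The ETS motif CCGGAAG was in 19 (25.7%; 19.8% and 9.93%) and the YY1 motif AAGATGGC in 10 (13.5%; 5.29% and 3.19%). The NRF1 half-site TGCGCA, a motif added after the data were seen, was in 18 (24.3%; 16.1% and 8.79%). The palindrome does not contain this half-site, though the sites can overlap. The ETS match counted for Atp5k and the YY1 match counted for Atp5pb do not lie wholly within the 250 bases printed above, so they are not marked there.

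For the sites tied to Hey binding, the share in members was close to or under that in the genes compared. CACGTG was in 6 member promoters (8.11%), against 11.8% of genes compared and 8.09% of all. CACGCG was in 15 (20.3%), against 19.9% and 10.5%. Of the 8 members with an unadjusted limma p under 0.05 for the line, CACGCG was in the promoters of Atp5d, Ndufaf8, Ndufb1 and Ndufb3, and not in those of Cox6b2, Cox7a1, Cox7c and Ndufaf1. These matches describe letters in the windows and show no binding.

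Other genes of the pathway were taken from 4 lists. A list of 37 further assembly factors held those of complexes II to V and 6 of complex I outside the Ndufaf names (Acad9, Ecsit, Tmem126b, Timmdc1, Foxred1 and Nubpl), and 34 passed the level filter, with medians of 0.0039 (Hey1 line) and -0.026 (Hey2 line). Cox20, a chaperone for a mitochondrially encoded complex IV subunit, differed by 0.22 and 0.27, and Sco1, a copper chaperone of complex IV, by 0.090 and 0.37. Sco2, its paralog, differed by -0.17 and -0.24, and Coa3, another complex IV assembly factor, by -0.19 and -0.13. The list was split between directions, with 17 of 34 below 0 in the Hey1 line and 20 of 34 in the Hey2 line.

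Of 14 genes for cytochrome c and carriers 13 passed, with medians of 0.043 and 0.025. Slc25a31, an ADP/ATP carrier known from testis, read 7.38 and 8.56 in the Hey1 line and 6.27 and 7.34 in the Hey2 line. It was higher with induction by 1.18 and 1.07 (limma 1.12 ± 0.085, adjusted p = 0.237) and lower in the Hey2 line (limma -1.16 ± 0.085, adjusted p = 0.0439), the one gene of the 4 lists that passed for the line. Cyct, the testis cytochrome c, read 9.40 and 9.82, and 8.25 and 8.90. Like Slc25a31, it was higher in the induced array of each line and lower in the Hey2 line in either state, with limma adjusted p = 0.278 for induction and 0.0521 for the line.

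Counterparts known from somatic tissues stood on the same list. Cycs, the widespread cytochrome c, differed by 0.13 and 0.037. Slc25a4, the heart and muscle ADP/ATP carrier, differed by 0.70 and 0.23, whereas Slc25a5, the carrier of dividing cells, differed by -0.17 and -0.23, and Etfb, which passes electrons from fatty acid oxidation, by -0.18 and -0.21. None of these had an adjusted p under 0.05 for induction in the limma fit.

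Of 17 citric acid cycle genes 16 passed, with medians of 0.020 and 0.019, and 7 of 16 were below 0 in the Hey1 line. Sucla2 and Suclg2, subunits of succinyl-CoA ligases, differed by 0.16 and 0.63 and by 0.16 and 0.30. Of 14 regulators of mitochondrial biogenesis 13 passed, with medians of -0.067 and -0.069. Ppargc1b, a coactivator of respiratory genes, read 7.86 and 7.58 in the Hey1 line and 8.56 and 8.26 in the Hey2 line. It was lower with induction by 0.28 and 0.29 (limma adjusted p = 0.320) and higher in the Hey2 line by 0.70 and 0.68 (limma adjusted p = 0.0538). Esrra, a nuclear receptor that acts with it, differed by -0.13 and -0.18, Tfb1m, a mitochondrial ribosomal RNA methyltransferase, by 0.24 and 0.15, and Gabpa, the DNA-binding subunit of GABP, by 0.10 and 0.14.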

How the data were processed

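Biotin-labelled total RNA was hybridised to Affymetrix arrays, 1 for each of 4 groups. The deposited values are log2 expression per probe set, and RMA is the tool named in the submitters' processing notes, whose version and settings the sources used here do not give. The sorted values of the arrays agree within 0.0024, so each difference is relative to the other genes of the same array. Array number limits the precision. Symbols came from GEO's platform annotation: of 45101 probe sets 34958 have 1 symbol, 932 several and 9211 none, and 10 probe sets with several symbols that touch the members were not used. All 90 member gene identifiers were found in the RefSeq table.

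The low threshold was the log2 of 5 over 4, or 0.32. Per gene, the probe set with the highest mean was kept, and genes with a highest value of at least 6.05 were compared. Differences of array pairs have no test. The fit in limma 3.58.1 (R 4.3.3) used line and induction as additive terms over all 4 arrays, with Benjamini-Hochberg adjustment over 12098 genes, and was tested on simulated data; where spreads were redrawn from the fitted variances, more calls were false than the threshold allows. Figures and counts used Python 3.11.15, pandas 2.3.3, numpy 2.4.6 and matplotlib 3.10.9. Members named are the 6 largest per direction in each line and between the uninduced lines, those past 1.5-fold, the extremes of each complex, the 5 lowest p per limma term and those with discordant probe sets; other lists give the 2 largest per direction and any gene past 2-fold. Further members named as counterparts or exceptions were chosen after their values were seen. Members and lists were chosen with earlier results of these data known. Labels name no separate cultures, so p-values reflect only how these arrays vary, which may be technical. Alternatives tried were the level filter, the mean of probe sets, cyclic loess, median centring, the reference array, the variance model and the block.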

Additional observations from a re-analysis of the deposited data

Results flagged for a closer look

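In 3 members the lines had opposite signs and the difference of 1 line was at least 0.32 in size. Each group holds 1 array, so the difference between the lines was not tested.

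Cox8c differed by 0.081 in the Hey1 line and by -0.57 in the Hey2 line, a gap of -0.65 between the lines. Ndufa4l2 differed by 0.12 and -0.45, a gap of -0.56. Cox7a2l differed by 0.015 and -0.36, a gap of -0.37, with all 3 of its probe sets lower in the Hey2 line.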

How the results depend on the processing

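The members' median was followed over the level filters, averaging each gene's probe sets, cyclic loess, median centring and the other line's uninduced array. It stayed below 0 in both lines, at -0.037 to -0.058 in the Hey1 line and -0.072 to -0.094 in the Hey2 line. The values -0.037 and -0.094 came from the other line's uninduced array. No median of all genes is given for that reference, so whether members leaned further than other genes there is not known. With the other line's uninduced array, the complex II median in the Hey1 line was -0.022. Past the low threshold, this reference gave 6 members higher and 1 lower in the Hey1 line. In the Hey2 line it gave 1 higher and 5 lower. With the filter at the 75th percentile, 1 member was higher in the Hey1 line and 2 were lower in the Hey2 line, and limma called 6 members for the line. With the mean of probe sets, 2 members were lower in the Hey2 line and the complex IV median of the Hey1 line was 0.018, while complex III in the Hey2 line went from -0.11 to -0.054. With the trend and robust options, limma called 4 members for induction and 12 for the line. Calls over all genes also moved: 433 for induction and 2933 for the line with those options, and, for the line, 1864 at the 75th percentile filter, 554 with the mean of probe sets, 351 with cyclic loess and 5 without induction as a block, against 111. At the 75th percentile filter limma called 4 genes for induction. The cause of these changes was not tested. No result reversed its direction past a threshold. The labels give no replicate numbers to pair by. Pairing by line was part of the limma fit of induction, and without that block limma called 0 members. Each group holds 1 array, so leaving out an array was not run.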
